A study of Mus musculus with 8 samples.

Results

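The genes described here are 10 known targets of glucocorticoid hormones, *Sgk1*, *Errfi1*, *Arrdc2*, *Nfkbia*, *Tsc22d3*, *Fkbp5*, *Klf9*, *Zbtb16*, *Hif3a* and *Plin4*, called the panel in what follows. They were taken as a list of symbols, with every probe that carries a RefSeq accession of the gene, out of 20660 named genes on the array. The 10 genes had 13 of the 55681 probes, and 11 of those probes were well above background often enough to be tested among 32600. The list was drawn up with the difference between BaP-exposed and control mice on these same arrays known. The differences of these 10 genes between the groups are therefore given as a description, without a test.

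The arrays measured RNA from the hippocampus of 8 mice of the transgenic Muta Mouse strain, all male, 9 weeks of age and housed singly. In the exposed group, 4 mice had received benzo[a]pyrene (BaP), a polycyclic aromatic hydrocarbon formed in combustion, in olive oil by gavage at 70 mg/kg bw on each of 3 days. The 4 control mice had received the olive oil alone by the same route and on the same days. Both groups were anesthetized with isoflurane and killed 24 hr after the last dose, and the tissue was then taken. Each group of the experiment had 5 mice, of which 4 were arrayed. All groups thus share gavage, handling and anesthesia, and every hippocampus was read as bulk tissue. Each RNA was labeled with Cy5 and hybridized beside a Cy3-labeled universal mouse reference RNA, and the values are log2 ratios of Cy5 over Cy3. Since the reference level differs from gene to gene, ratios are compared between mice and not between genes.

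The 8 arrays lay on 1 slide, with a median Cy5 signal of 108 to 174 over a background of 67 to 71. All 6 markers of hippocampal neurons and all 6 general neuron markers were well above background on every array. For 4 arrays, those titled BaP 3, BaP 4, control 3 and control 4, the sample's title gives one group and its source name the other. Mice were grouped by title, with which the animal numbers in the labels run. These 4 arrays also filled the lower row of the slide and the 4 with agreeing labels the upper row, so that the conflict and the slide row cannot be told apart, and the difference of each panel gene is also given within each row, with 2 mice against 2.

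Glucocorticoids cross the cell membrane and bind the glucocorticoid receptor, which is held in the cytoplasm by a chaperone complex. The bound receptor moves to the nucleus and attaches to DNA at glucocorticoid response elements, palindromes of a pair of hexamers around a short spacer, and transcription of nearby genes rises or falls. The hippocampus is rich in this receptor and in the related mineralocorticoid receptor, and takes part in the feedback that shuts off the hormonal stress response. The genes of the panel answer to other signals too, among them insulin, hypoxia, inflammation and the daily clock.

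The sequence in front of *Sgk1* shows what such an element looks like. RefSeq promoter windows of the mouse assembly GRCm38.p6, each from 250 bases before to 50 bases after an annotated start, were searched on both strands for the palindrome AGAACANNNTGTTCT. Of 32851 windows, 3 held it (0.00913%), and 1 of these belonged to *Sgk1*, at -189 to -175 from that start. The panel had 17 windows for 9 genes, of which *Sgk1* had 6, and *Zbtb16* had no entry. The looser pattern GNACANNNTGTNC, which overlaps the full palindrome, was found in 156 windows (0.475%), and among the panel only in the same *Sgk1* window. A single hexamer AGAACA stood in 6233 windows (19%) and in 4 of the 17 windows of the panel, 3 of them of *Sgk1* and the other of *Tsc22d3*. The first line gives the *Sgk1* palindrome at chr10:21993693-21993722 on the plus strand, and the other 2 lines give the single hexamers of another *Sgk1* start at chr10:21992202-21992223 on the plus strand and of *Tsc22d3* at chrX:140600694-140600715, all written in the direction of the gene, which for *Tsc22d3* is the minus strand. Capitals mark the matched letters. In the *Tsc22d3* line they are the reverse complement of AGAACA, since that match lies on the strand opposite to the gene.
Sgk1 palindrome: atgcggaaAGAACAGAATGTTCTcggagat
Sgk1 hexamer: tgggactcAGAACAgaaaggca
Tsc22d3 hexamer: attcgacaTGTTCTaagttctg
These matches are descriptions of letters in short windows, and binding of the receptor was not measured.

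All 10 genes had a higher mean in BaP-exposed mice, where 50% of the 15090 tested genes were higher. The differences ran from 0.00 for *Errfi1* to 1.27 for *Sgk1* on the log2 scale, with a median of 0.48 and a mean of 0.53. Over all tested genes the median was -0.00 and the central 95% lay between -0.354 and 0.417. The groups did not overlap for 5 of the 10 genes, *Sgk1*, *Nfkbia*, *Plin4*, *Hif3a* and *Klf9*, and 2.66% of all tested genes were higher without overlap. At least 1.5-fold higher were 4 of the 10, *Sgk1*, *Nfkbia*, *Plin4* and *Hif3a*, and 0.954% of all tested genes. None of the 10 was among the 3 genes (0.0199%) or 3 probes (0.0092%) past limma's adjusted p of 0.05 and 1.5-fold. Since the list was chosen on this difference, nothing is read from these counts. In bulk tissue, more RNA of a gene per cell and more cells that hold it cannot be told apart.

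**Figure D1:**
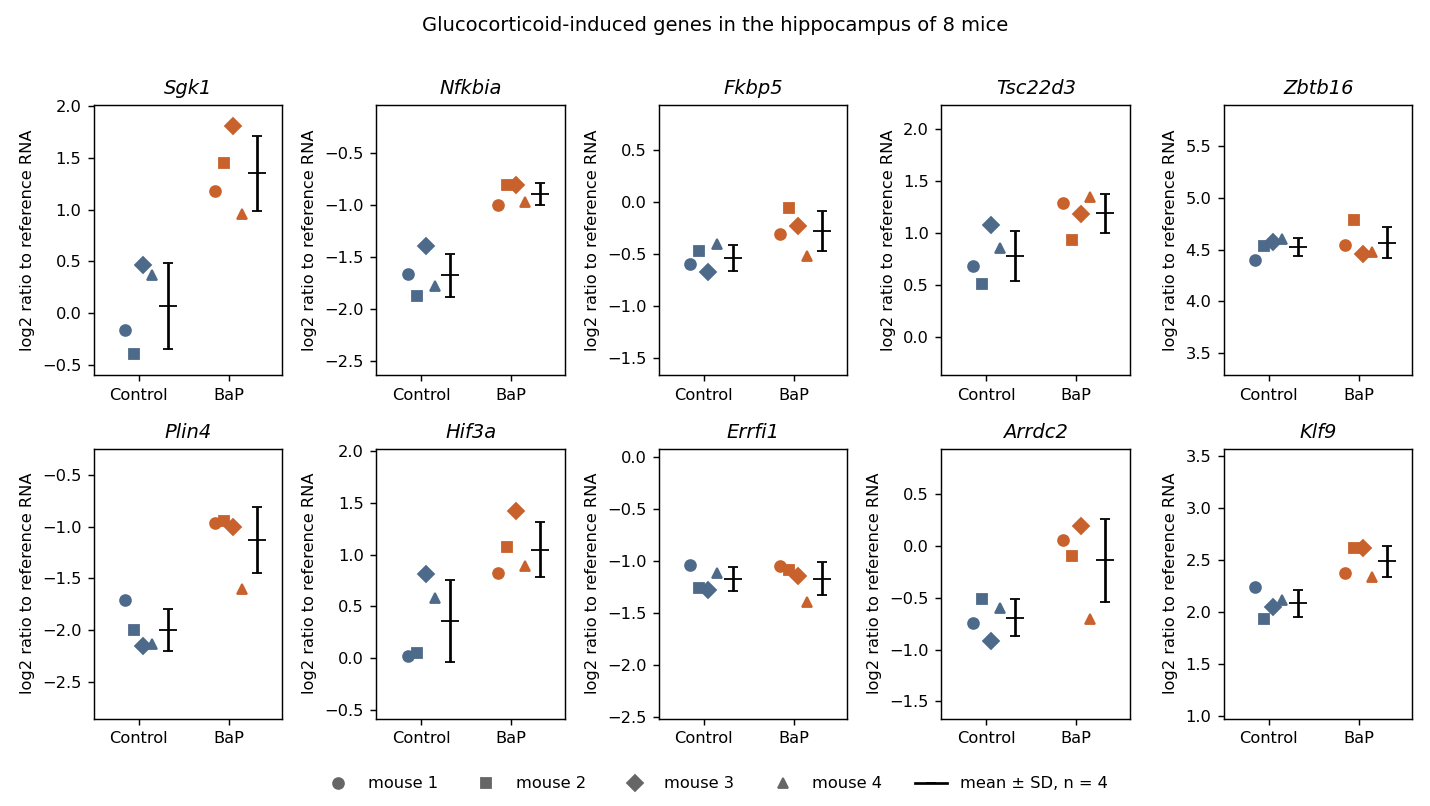
Log2 ratio to the reference RNA for the brightest tested probe of each of the 10 genes, 1 symbol per mouse, with the mean and SD of the 4 control and 4 BaP-exposed mice beside the points. Every vertical axis spans the same number of log2 units, centered on the values of its own gene. All 4 BaP-exposed mice stand above all 4 control mice for Sgk1, Nfkbia, Plin4, Hif3a and Klf9, while Zbtb16 and Errfi1 overlap almost fully.

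Of the genes that act in cytoplasmic signaling, *Sgk1* encodes a kinase that regulates ion channels and transporters and takes its name from its induction by serum and glucocorticoid. Its log2 ratio was -0.16, -0.39, 0.47 and 0.37 in control mice 1 to 4 and 1.18, 1.45, 1.80 and 0.96 in BaP-exposed mice 1 to 4. Every exposed mouse stood above every control mouse, with BaP 3 the highest and BaP 4 the closest to the controls. The means were 0.07 ± 0.41 and 1.35 ± 0.36 (SD, n = 4 each), a difference of 1.27 (standard error 0.22) or 2.42-fold. Within the upper slide row the difference was 1.59 and within the lower row 0.96. The promoter window with the full palindrome belongs to this gene.

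*Arrdc2* encodes an arrestin-domain protein of the family that links membrane proteins to the machinery of their breakdown. On its brighter probe the log2 ratio was -0.74, -0.51, -0.92 and -0.60 in control mice and 0.06, -0.10, 0.19 and -0.71 in BaP-exposed mice. BaP 4 lay among the controls, and the other 3 exposed mice lay above them all. The means of -0.69 ± 0.18 and -0.14 ± 0.40 differed by 0.55 (standard error 0.18), or 1.47-fold, with 0.61 in the upper slide row and 0.50 in the lower. The second *Arrdc2* probe read -0.90, -0.62, -1.17 and -0.70 in control mice and 0.18, 0.01, 0.13 and -0.90 in exposed mice, a difference of 0.71 (standard error 0.23). Both probes placed BaP 4 apart from the other exposed mice.

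*Errfi1* encodes an inhibitor of the epidermal growth factor receptor. Its log2 ratio lay between -1.28 and -1.04 in control mice and between -1.40 and -1.05 in BaP-exposed mice. The groups overlapped and the difference of 0.00 was smaller than its standard error of 0.10. It was 0.08 in the upper slide row and -0.08 in the lower.

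Of the genes that restrain inflammation, *Nfkbia* encodes the protein that keeps NF-kB in the cytoplasm, and NF-kB itself also induces the gene. Its log2 ratio was -1.66, -1.87, -1.39 and -1.78 in control mice and -1.0, -0.80, -0.80 and -0.97 in BaP-exposed mice. The exposed mice lay close together above all controls. The means of -1.67 ± 0.21 and -0.89 ± 0.11 differed by 0.78 (standard error 0.11), or 1.72-fold. The difference was 0.87 in the upper slide row and 0.70 in the lower.

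*Tsc22d3* encodes the glucocorticoid-induced leucine zipper protein GILZ. It read 0.68, 0.51, 1.08 and 0.85 in control mice and 1.29, 0.93, 1.18 and 1.35 in BaP-exposed mice. BaP 2 lay below control 3, so the groups overlapped. The difference was 0.41 (standard error 0.14), or 1.33-fold, with 0.52 in the upper slide row and 0.30 in the lower.

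Of the partners of the receptor itself, *Fkbp5* encodes a co-chaperone of the glucocorticoid receptor that lowers its affinity for the hormone, a feedback loop on the receptor. The log2 ratio was -0.60, -0.47, -0.68 and -0.41 in control mice and -0.31, -0.06, -0.23 and -0.52 in BaP-exposed mice. Only BaP 4 fell into the control range. The means of -0.54 ± 0.12 and -0.28 ± 0.19 differed by 0.26 (standard error 0.11), or 1.20-fold, with 0.35 in the upper slide row and 0.17 in the lower.

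Of the transcription factors, *Klf9* encodes a zinc finger protein that is induced by glucocorticoid and thyroid hormone in neurons. Its log2 ratio was 2.24, 1.93, 2.05 and 2.12 in control mice and 2.38, 2.62, 2.62 and 2.34 in BaP-exposed mice. The groups did not overlap, although BaP 4 and control 1 lay close together. The means of 2.08 ± 0.13 and 2.49 ± 0.15 differed by 0.40 (standard error 0.10), or 1.32-fold. The slide rows gave nearly the same difference, 0.42 and 0.39.

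*Hif3a* encodes a member of the hypoxia-inducible factor family. Its tested probe read 0.02, 0.05, 0.81 and 0.58 in control mice and 0.82, 1.07, 1.42 and 0.89 in BaP-exposed mice. The groups did not overlap, but control 3 at 0.81 came next to BaP 1 at 0.82, and within each group the lower slide row held the highest mouse. The means of 0.36 ± 0.39 and 1.05 ± 0.27 differed by 0.69 (standard error 0.20), or 1.61-fold, with 0.91 in the upper row and 0.46 in the lower. The other 2 *Hif3a* probes were not tested, being well above background on 2 arrays and on 0 arrays. Their differences were -0.00 and 0.18.

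*Zbtb16* encodes the zinc finger protein PLZF. Its log2 ratio ran from 4.40 to 4.60 in control mice and from 4.46 to 4.78 in BaP-exposed mice. The difference of 0.04 was smaller than its standard error of 0.09, and it was 0.20 in the upper slide row and -0.11 in the lower. Among the 10 genes, *Zbtb16* and *Errfi1* were the ones whose difference lay within its own standard error.

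Outside the transcription factors, *Plin4* encodes a coat protein of lipid droplets. It read -1.71, -2.0, -2.15 and -2.13 in control mice and -0.97, -0.95, -1.0 and -1.60 in BaP-exposed mice. BaP 1, BaP 2 and BaP 3 were almost level and BaP 4 stood below them, still above every control. The means of -2.0 ± 0.20 and -1.13 ± 0.31 differed by 0.87 (standard error 0.16), or 1.83-fold, with 0.90 in the upper slide row and 0.84 in the lower.

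The difference of each of the 10 genes was larger in the upper slide row, where the labels agree, than in the lower row. All 10 were higher in BaP-exposed mice in the upper row and 8 in the lower, *Zbtb16* and *Errfi1* being the exceptions, and the median difference was 0.56 and 0.43. With the mice grouped by source name, which turns the 4 arrays of the lower row around, the median was 0.09, the difference of *Sgk1* was 0.31 and that of *Plin4* 0.03. In the reference channel the group difference of the tested probes of these genes was at most 0.12.

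**Figure D2:**
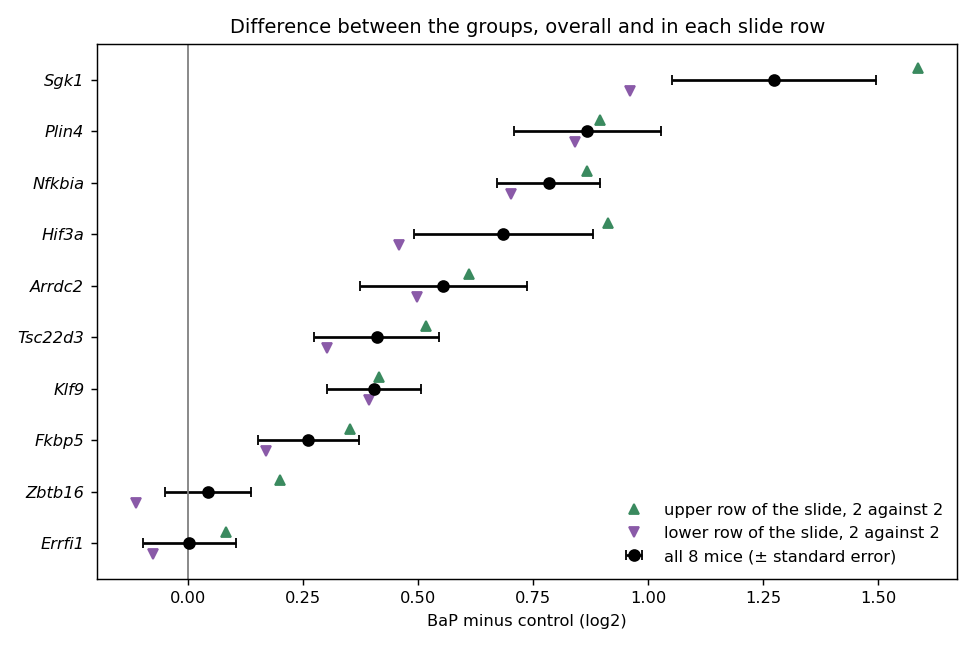
BaP minus control on the log2 scale for each of the 10 genes, ordered by size. The black points and bars give the difference over all 8 mice with its standard error, and the triangles give the difference between 2 exposed and 2 control mice within the upper or the lower row of the slide. The upper row lies to the right of the lower row for every gene, and only Zbtb16 and Errfi1 fall below 0, in the lower row.

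Mice of a group were not alike across the panel. BaP 4 was the lowest exposed mouse for 6 of the 10 genes, *Sgk1*, *Fkbp5*, *Plin4*, *Errfi1*, *Arrdc2* and *Klf9*, and yet the highest for *Tsc22d3*. BaP 3 was the highest or level with the highest for 5 genes. Without BaP 4, a choice made after its low values were seen, the groups did not overlap for 7 genes, with *Fkbp5* (a difference of 0.34) and *Arrdc2* (0.75) added. With that mouse left out, 6.31% of all tested genes were higher without overlap, against 2.66% with all 8 mice. Among control mice, control 3 was the highest for 4 genes and the lowest for 4 others. It was the highest control for *Sgk1*, *Nfkbia*, *Tsc22d3* and *Hif3a*, where it stood 0.28 to 0.45 above its group mean.

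As a measure of how far the genes go together, each gene was correlated with the mean of the other 9, scaled per gene, over the 8 arrays. Pearson r was 0.931 for *Sgk1*, 0.905 for *Klf9*, 0.887 for *Plin4*, 0.867 for *Nfkbia*, 0.816 for *Fkbp5*, 0.8 for *Arrdc2* and 0.788 for *Hif3a*. It was 0.503 for *Tsc22d3*, 0.309 for *Zbtb16* and 0.221 for *Errfi1*. These values hold the difference between the groups, on which the list was chosen, and the points share 1 slide, so they describe these 8 arrays alone. Among 14867 genes with a value on every array, the pattern of *Trmt5* (r = 0.98), *Gm9895* (0.977), *Flrt2* (0.976), *Snrnp200* (0.969), *Tsfm* (0.968) and *Mrpl38* (0.967) was most like the mean of the panel.

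**Figure D3:**
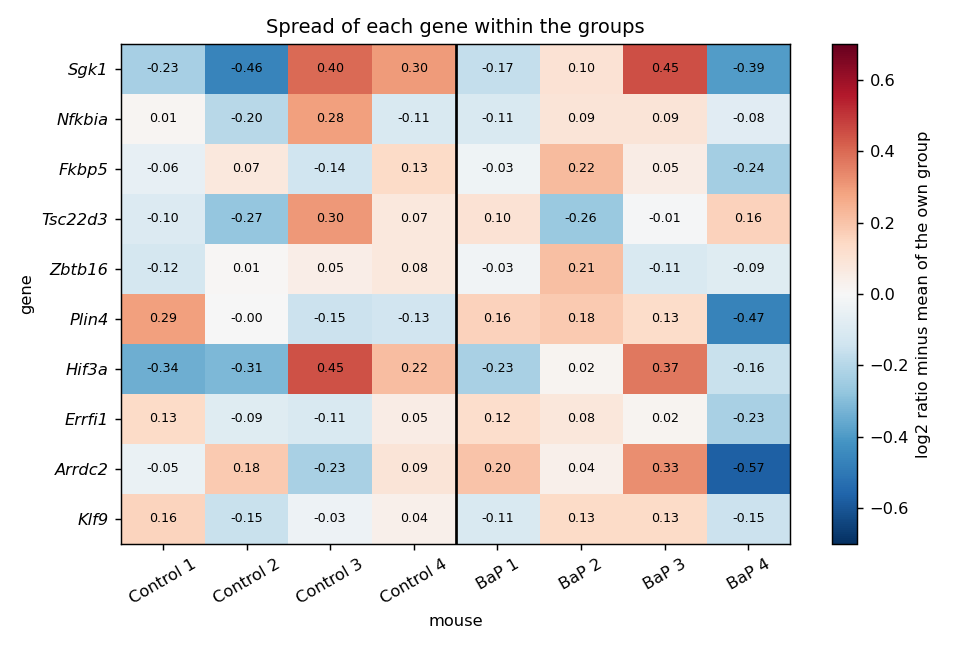
Log2 ratio of each gene in each mouse minus the mean of the 4 mice of its own group, with red above and blue below the group mean. BaP 4 is below its group for 9 genes as drawn, most for Arrdc2 at -0.57 and Plin4 at -0.47, and control 3 is above its group for Hif3a at 0.45 and Sgk1 at 0.40.

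The question of whether other genes induced by glucocorticoids moved was put to 26 such genes outside the panel, all of them tested. This list and those below were also chosen with earlier results of these data known. In BaP-exposed mice 18 had a higher mean and 8 a lower one, and the median difference was 0.12 beside -0.00 for all tested genes. This median was 0.225 in the upper slide row, 0.047 in the lower row and 0.014 with the mice grouped by source name. Neither limma, at an adjusted p of 0.05 and 1.5-fold, nor the gene-wise F test called any (0 of 26 in each). Over all tested genes limma called 0.0199%, and the F test called 0 of the 32600 probes, so these 0 calls say little about the list. At an unadjusted p of 0.05, 9 of the 26 passed, 5 upward and 4 downward, where 9.44% of all tested genes did. The groups did not overlap for 5 of the 26 (19.2%, beside 5.12% of all tested genes), 4 of them higher and 1 lower.

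*Mt2*, a metallothionein that binds zinc and copper, read 0.61, 0.23, 0.46 and 0.04 in control mice and 1.09, 1.0, 1.18 and 0.70 in BaP-exposed mice. The groups did not overlap, and the difference was 0.66 (standard error 0.14, adjusted p = 0.372 from limma). The neighboring metallothionein gene *Mt1* overlapped, with a difference of 0.15 (standard error 0.11, adjusted p = 0.705 from limma). *Cebpd*, a transcription factor of the acute phase response, read -1.53, -1.64, -1.84 and -1.95 in control mice and -1.23, -0.76, -1.0 and -1.48 in exposed mice. Its groups came close but did not overlap, with a difference of 0.62 (standard error 0.16, adjusted p = 0.467 from limma). *Per1*, a repressor of the circadian clock as well as a glucocorticoid target, read 0.94, 0.94, 1.22 and 0.97 in control mice and 1.27, 1.23, 1.54 and 1.49 in exposed mice. Control 3 reached almost to the exposed mice, and the difference was 0.37 (standard error 0.10, adjusted p = 0.490 from limma).

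Overlap between exposed and control mice was seen for *Ddit4*, *Fam107a*, *Dusp1*, *Pdk4* and *Cdkn1a*. The difference was 0.34 for *Ddit4*, an inhibitor of mTOR signaling (standard error 0.23, adjusted p = 0.673 from limma), and 0.32 for *Fam107a*, an actin-binding stress response gene (standard error 0.29, adjusted p = 0.758 from limma). For *Fam107a* the slide rows went opposite ways, with 1.07 in the upper row and -0.43 in the lower. It was -0.02 for *Dusp1*, a phosphatase of MAP kinases (standard error 0.14, adjusted p = 0.982 from limma), and 0.03 for *Pdk4*, an inhibitor of pyruvate dehydrogenase (standard error 0.13, adjusted p = 0.965 from limma). *Cdkn1a*, an inhibitor of the cell cycle that p53 also induces, had a difference of -0.28 (standard error 0.12, adjusted p = 0.551 from limma). *Lcn2*, a secreted iron-trafficking protein, was lower in every exposed mouse than in any control mouse, with a difference of -0.21 (standard error 0.07, adjusted p = 0.513 from limma). Its difference turned to 0.06 with median centring and to 0.01 by source name.

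**Figure D4:**
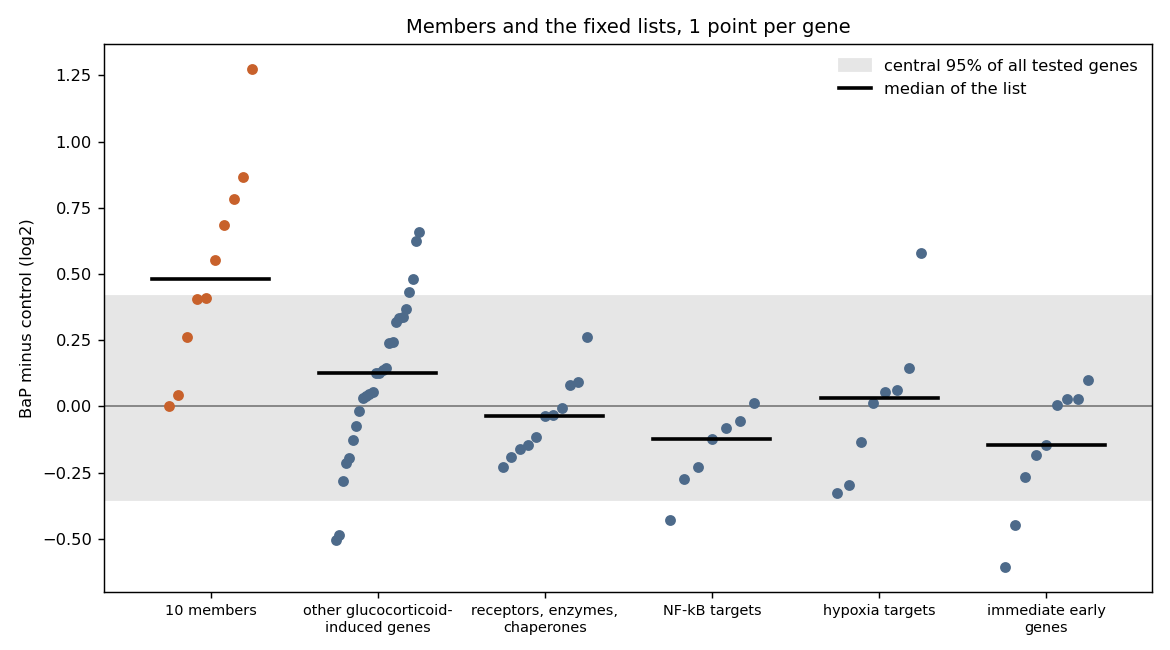
BaP minus control on the log2 scale, 1 point per tested gene, for the 10 genes of the panel and for 5 other lists. Black lines mark the median of each list, and the gray band holds the central 95% of all tested genes, from -0.354 to 0.417. The median is 0.48 for the panel, chosen on this difference, and 0.12, -0.04, -0.12, 0.03 and -0.15 for the other lists from left to right. The other lists were chosen with earlier results of these data known.

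The machinery that receives the hormone was read through 12 genes for receptors, steroid enzymes, chaperones and coactivators, of which 11 were tested. *Hsd11b2*, the enzyme that inactivates corticosterone, was well above background on no array. The mean of 3 was higher and that of 8 lower after BaP, and the median difference was -0.04. By limma 0 were called at an adjusted p of 0.05 and 1.5-fold, beside 0.0199% of all tested genes. The gene-wise F test called 0 here and 0 over all tested probes. An unadjusted p of 0.05 from limma was reached by 1 (downward), beside 9.44% of all tested genes. The groups overlapped for all 11, and 5.12% of all tested genes did not overlap.

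The glucocorticoid receptor gene *Nr3c1* read 0.25, -0.22, -0.02 and -0.26 in control mice and -0.16, -0.16, -0.11 and 0.15 in BaP-exposed mice. The difference was -0.01 (standard error 0.13, adjusted p = 0.991 from limma), and its sign turned under several scalings. The slide rows went opposite ways, with -0.17 in the upper row and 0.16 in the lower. BaP 4, the lowest exposed mouse for 6 panel genes, was the highest exposed mouse for this receptor. The mineralocorticoid receptor gene *Nr3c2* differed by -0.03 (standard error 0.14, adjusted p = 0.965 from limma), also with a sign that depended on the scaling. It was 0.32 in the upper slide row and -0.38 in the lower. For *Hsd11b1*, the enzyme that regenerates active corticosterone, the difference was 0.26 (limma standard error 0.16, adjusted p = 0.647). The receptor co-chaperone *Fkbp4*, the counterpart of *Fkbp5*, had a difference of -0.16 (limma standard error 0.10, adjusted p = 0.646), which turned to 0.10 with median centring. It was -0.31 in the upper slide row, -0.01 in the lower and -0.10 without BaP 2.

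Genes under other regulators to which panel genes also answer were counted in 3 lists. Of 9 targets of NF-kB, the regulator of *Nfkbia*, 7 were tested (*Icam1* and *Il1b* were well above background on no array), with 1 higher, 6 lower and a median of -0.12. Of 8 hypoxia targets, all tested, 5 were higher and 3 lower, with a median of 0.03. Of 9 immediate early genes, all tested, 4 were higher and 5 lower, with a median of -0.15. By limma 0 genes of the 3 lists were called at an adjusted p of 0.05 and 1.5-fold, beside 0.0199% of all tested genes. The F test called 0 here and 0 over all tested probes. At an unadjusted p of 0.05, 2 NF-kB targets (both downward), 2 hypoxia targets (1 in each direction) and 2 immediate early genes (both downward) passed, where 9.44% of all tested genes did. The groups did not overlap for 1 of the 7 tested NF-kB targets (14.3%, lower) and 2 of the 8 hypoxia targets (25%, 1 in each direction). They overlapped for all immediate early genes, and 5.12% of all tested genes did not overlap.

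Markers of other cells were read beside the panel. All 10 markers of choroid plexus, the secretory epithelium of the ventricles, were above background on every array and had a higher mean in BaP-exposed mice, with a median of 0.81. None passed limma's threshold, which 0.0199% of all tested genes passed, or an unadjusted p of 0.05, which 9.44% passed. The mean of the 10 was 4.24, 3.17, 4.64 and 2.80 in control mice and 2.22, 5.27, 5.70 and 4.71 in BaP-exposed mice. BaP 1 had the lowest level of all 8 mice, and the other 3 exposed mice lay above every control mouse, with BaP 3 the highest. All 6 tested erythroid markers had a lower mean in BaP-exposed mice, 2 of them, *Hbb-bs* and *Alas2*, past limma's adjusted threshold, and the list mean was 3.81 to 4.01 in control and 2.89 to 3.20 in exposed mice. All 6 markers of hippocampal neurons had a higher mean, with a median of 0.28. Their list mean was 2.60, 2.38, 2.23 and 2.13 in control mice and 2.65, 3.08, 2.89 and 2.26 in BaP-exposed mice. BaP 4, the lowest exposed mouse for 6 panel genes, was also the lowest here and lay within the control range. Its list mean was also the lowest of the exposed mice for oligodendrocyte (3.67) and microglial (2.26) markers. It was the highest of them for general neuron (4.58) and astrocyte (5.01) markers. Among the markers of hippocampal neurons, *Wfs1* was lowest in BaP 1 at 1.74, with BaP 4 at 2.42. At an unadjusted p of 0.05, 1 of the 6 passed, the granule cell marker *Dsp*, with a difference of 1.02 (limma standard error 0.35, adjusted p = 0.510). The part of all these levels in the differences of the panel was not tested.

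For the remaining lists of cell markers the ranges of the list mean overlapped between the groups. The list mean was 3.54 to 3.74 in control and 3.67 to 3.97 in BaP-exposed mice for 8 oligodendrocyte markers, and 4.81 to 5.21 and 4.80 to 5.01 for 8 astrocyte markers. It was 1.59 to 1.97 and 1.68 to 1.85 for 10 endothelial markers, and 2.19 to 2.35 and 2.26 to 2.32 for 6 microglial markers. For 6 general neuron markers it was 4.43 to 4.69 and 4.48 to 4.58. Single markers differed more than these means. An unadjusted p of 0.05 was reached by 4 of the 10 endothelial markers (3 upward), 3 of the 8 oligodendrocyte markers (2 upward) and 1 of the 6 microglial markers (downward), and by 0 of the astrocyte and neuron markers, beside 9.44% of all tested genes. After adjustment limma called 0 of these markers, beside 0.0199% of all tested genes. *Cldn5*, a tight junction protein of brain endothelium, was at 5.25 to 5.39 in control and 4.69 to 4.87 in BaP-exposed mice, without overlap (difference -0.57, limma standard error 0.08, adjusted p = 0.138). *Opalin*, a myelin protein of oligodendrocytes, was at 2.57 to 2.89 in control and 3.04 to 3.48 in exposed mice, also without overlap (difference 0.57, limma standard error 0.13, adjusted p = 0.381). The part of these markers in the differences of the panel was not tested either.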

How the data were processed

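Hippocampal RNA of 4 control and 4 BaP-exposed mice was hybridized to 2-color Agilent arrays. The authors deposited, per array, Feature Extraction intensity values of each spot in Cy5 (sample) and Cy3 (reference), and a log10 ratio, which was not used here. The authors also deposited a table of log2 ratios, described as LOWESS-normalized and used as an alternative. The array was designed on another genome build than the promoter windows, so no gene coordinates were joined to it. Spot medians were corrected with normexp (offset 50) and normalized by loess within arrays in limma 3.58.1 under R 4.3.3, the nearest equivalent of the LOWESS and analysis of variance in the study's methods. Control spots were removed, outlier spots became missing values and replicate spots were averaged by probe. A probe was tested if its Cy5 signal was well above background on 4 or more of the 8 arrays, with lmFit and eBayes and Benjamini-Hochberg adjustment over all 32600, with calls at an adjusted p of 0.05 and 1.5-fold. The brightest tested probe stood for a gene. Probes were named through RefSeq accessions (27235 of 28685, 94.9%). Summaries were made in Python 3.11.15 with pandas 2.3.3 and numpy 2.4.6. The script was tested on simulated data.

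The 10 genes and all lists were chosen with earlier results of these data known. Named were the 10 genes with all probes, 10 genes of the wider glucocorticoid list, 4 of the receptor list, any called list gene and the 6 genes most like the panel. *Txnip*, *Cldn5*, *Opalin*, *Dsp*, *Slc2a1*, *Vegfa*, *Nfkb2*, *Fos*, *Angptl4* and *Anxa1* were named after their values were seen. The alternatives covered background correction, normalization, channel, filters, probe choice, test, replicate and slide row blocks, the label conflict and each mouse left out. Array number and, for dim probes, signal over background limit the precision.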

Additional observations from a re-analysis of the deposited data

Results flagged for a closer look

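In 4 of 62 groups of 4 mice examined, 1 mouse stood apart from the other 3 by Dixon's ratio of the gap to the range, where chance alone gives about 1 in 20, or 3.1. For *Plin4*, BaP 4 at -1.60 lay below the other exposed mice at -1.0 to -0.95 (ratio 0.923). For the second probe of *Arrdc2*, BaP 4 at -0.90 lay below the others at 0.01 to 0.18 (ratio 0.841). For *Nr3c1*, BaP 4 at 0.15 lay above the others at -0.16 to -0.11 (ratio 0.848). For *Per1*, control 3 at 1.22 lay above the other controls at 0.94 to 0.97 (ratio 0.896).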

How the results depend on the processing

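Each of *Sgk1*, *Nfkbia*, *Plin4*, *Hif3a*, *Arrdc2*, *Tsc22d3*, *Klf9* and *Fkbp5* stayed higher in BaP-exposed mice under all 22 alternatives, while *Errfi1* and *Zbtb16* were higher in 14 and 19. The panel was chosen on this difference, and the filter and block settings left the difference of each gene unchanged. Nothing is therefore read from these counts. No alternative called a gene of the wider glucocorticoid, receptor, NF-kB, hypoxia or immediate early lists. As each alternative called only 0 to 6 of all tested probes, this says little about the lists. Leaving out 1 mouse at a time gave a panel median of 0.43 to 0.60, 5 to 7 panel genes without overlap (beside 6.47% to 11.5% of all genes, against 5.12% with all mice), 1 to 3 called probes, and list medians of 0.08 to 0.17 (wider glucocorticoid), -0.101 to -0.047 (receptors), -0.251 to -0.076 (NF-kB), -0.01 to 0.06 (hypoxia) and -0.21 to 0.02 (immediate early). The 1 called probe came without BaP 2, control 1, control 3 or control 4.

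The 3 called probes became 6 with Cy5 alone, 6 with limma's trend and robust variance, 5 without a filter, and 0 with the F test, with processed signals, by source name, and in either slide row alone. The replicate numbers did not pair the mice, since same-numbered mice correlated at -0.354 to 0.0313 and none best with its own number. With the replicate number as a block 3 probes were called and the panel median was 0.48.

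Median centring moved the median of all tested probes by 0.17, and gave medians of 0.72 for the panel (0.56 above that shift), 0.32 for the wider glucocorticoid list, 0.15 for receptors, 0.065 for NF-kB, 0.28 for hypoxia and 0.14 for immediate early genes. It turned *Cdkn1a* to 0.002, *Dusp1* to 0.21, *Fkbp4* to 0.096, *Lcn2* to 0.063, *Nr3c1* to 0.26 and *Nr3c2* to 0.12. Of the panel it put *Fkbp5* at 0.51, *Klf9* at 0.65, *Tsc22d3* at 0.66, *Errfi1* and *Zbtb16* at 0.28 and *Nfkbia* at 1.0. By source name the panel median was 0.087 with 1 gene without overlap (2.58% of all genes), receptors stood at 0.022 and NF-kB at -0.019, and *Cdkn1a* (0.21), *Cebpd* (-0.034), *Ddit4* (-0.048), *Lcn2* (0.014), *Mt2* (-0.031), *Nr3c2* (0.35) and *Per1* (-0.053) turned. In the upper slide row alone, where labels agree, 9 panel genes did not overlap (39% of all genes did not), receptors stood at -0.079, NF-kB at -0.235, hypoxia at 0.084 and *Nr3c2* at 0.32. In the lower row 7 panel genes did not overlap (38.5% of all genes), and *Dusp1* was 0.12, *Fam107a* -0.43, *Nr3c1* 0.16 and *Pdk4* -0.019. With Cy5 alone receptors stood at 0.012, hypoxia at 0.115, *Dusp1* at 0.06, *Nr3c1* at 0.012, *Nr3c2* at 0.038 and *Pdk4* at -0.039. The deposited log2 ratios gave 0.003 for receptors and for *Nr3c1*, -0.038 for hypoxia and 0.019 for *Nr3c2*. No background correction gave 0.000 for *Nr3c1* and 0.007 for *Nr3c2*. Means over probes gave -0.088 for receptors and -0.082 for hypoxia, and processed signals -0.097 for receptors. With 1 mouse left out, *Dusp1* ran from -0.131 to 0.051, *Nr3c1* from -0.082 to 0.096, *Nr3c2* from -0.131 to 0.057 and *Pdk4* from -0.048 to 0.105. *Ddit4* was 0.20 without control 2 or BaP 1 and stood at 0.53 without BaP 2, *Fam107a* was 0.08 without control 1, 0.21 without BaP 2, 0.56 without control 3 and 0.50 without BaP 4, and *Hsd11b1* was 0.17 without BaP 3 and 0.41 without BaP 4. The cause of these shifts was not tested.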

Other observations

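Further genes of the lists were picked out here after their values were seen. *Txnip*, which binds and inhibits thioredoxin, read -2.94, -3.15, -2.72 and -3.02 in control mice and -2.67, -2.54, -2.41 and -2.48 in BaP-exposed mice, without overlap. The difference was 0.43 (standard error 0.11, adjusted p = 0.461 from limma). *Slc2a1*, the glucose transporter of the blood-brain barrier and a hypoxia target, was likewise higher without overlap, at -1.95 to -1.36 in control and -1.27 to -0.94 in exposed mice (difference 0.58, standard error 0.14, adjusted p = 0.433 from limma). *Vegfa*, an angiogenic factor and another hypoxia target, was lower without overlap, at -0.89 to -0.68 in control and -1.16 to -0.90 in exposed mice (difference -0.33, standard error 0.09, adjusted p = 0.488 from limma).

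*Nfkb2*, a subunit of NF-kB, ran from -3.55 to -3.22 in control and from -3.74 to -3.59 in exposed mice, with a difference of -0.27 (standard error 0.09, adjusted p = 0.502 from limma). *Fos*, an immediate early gene of neuronal activity, overlapped between the groups, with a difference of -0.61 (standard error 0.20, adjusted p = 0.498 from limma). *Angptl4* (-0.49) and *Anxa1* (-0.50), both on the wider glucocorticoid list, were among the 4 genes of that list with an unadjusted p under 0.05 in the downward direction, with limma adjusted p of 0.496 and 0.533.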
